A study of Homo sapiens with 6 samples.

Results

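The heat shock chaperone genes examined here were 10 of the 16623 genes in the expression files of MDA-MB-231 cells given the histone deacetylase (HDAC) inhibitor PCI-24781. They were chosen by name, though with earlier results of these data known. They are the rows whose NCBI Gene ID carries the symbol HSP90AA1, HSP90AB1, HSPA1A, HSPA1B, HSPA2, HSPA8, HSPH1, BAG3, DNAJB1 or HSPB1. All 10 rows were found. MDA-MB-231 is an established human breast cancer line of the triple-negative kind, and PCI-24781 is a hydroxamate that blocks many of the zinc-dependent HDACs. The adherent cells, grown in DMEM with fetal bovine serum, were exposed to the solvent DMSO alone (the control) or to the inhibitor at 100 or 200 nM, and each was harvested after 24 or 48 h. Each of these 6 conditions was sequenced as 1 library from this single, otherwise unmodified line, and the question asked was how the transcriptome differed from DMSO at the same time.

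Heat shock proteins are chaperones that hold, fold and refold other proteins. HSP70 binds exposed stretches of unfolded clients in cycles of ATP use that J-domain proteins start and nucleotide exchange factors end, HSP90 takes over nearly folded clients such as kinases and steroid receptors, and small heat shock proteins hold unfolded proteins without ATP. Heat shock factor 1 (HSF1) switches many of these genes on when unfolded proteins build up, by binding heat shock elements in their promoters. Cancer cells often carry high levels of them, and cytosolic HDAC6 is known to deacetylate the HSP90 protein, a step that RNA levels do not measure.

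Expression was given as FPKM (fragments per kilobase of transcript per 1000000 mapped fragments), a unit corrected for transcript length, so that levels can be set side by side between genes. Differences between libraries are given as differences in log2(FPKM + 1), which understates the change of genes near or below 1 FPKM. With 1 library per condition, a difference between any 2 libraries had no replicate check, and none is given a p-value. The time difference alone was also read over the 3 doses as pairs. In its place, genes that differed by 2-fold or more on that scale were called higher or lower, and a second threshold of 1.5-fold was also read. A gene entered a comparison when it reached 1 FPKM in at least 1 of the libraries compared. All 10 genes passed in every comparison, although HSPA2, below 1 FPKM in DMSO 24 h, did so against that library only through the other one. RNA of bulk cultures was measured, in which fewer cells of a kind and less RNA per cell cannot be told apart.

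The cells carried the markers of their line. VIM (vimentin) lay at 1629 to 2053 FPKM and CAV1, CD44 and EGFR were above 35 FPKM in all 6 libraries, while the luminal genes ESR1, PGR and CDH1 stayed below 0.4 FPKM and GATA3 lay at 0.70 to 1.03 FPKM. Of 3 markers of other cell types, ALB (liver) was not found, PTPRC (leukocytes) lay at 0.76 to 1.01 FPKM and PECAM1 (endothelium) at 0.38 to 2.33 FPKM. The steps between low FPKM values gave an approximate depth of 15.7 to 18 times 1000000 fragments per library, from which the counting errors below were worked out. One feature of the libraries bears on all 48 h values. Of the 523 genes called higher with 200 nM at 24 h, 441 lay below DMSO with 100 nM at 48 h and 77 above it, whereas with 200 nM at 48 h 23 lay below and 498 above. Whether the 100 nM and DMSO libraries of 48 h carry each other's labels cannot be told apart from a true difference in response, and its part in the results below was not tested. The 48 h values of the 10 genes, of SERPINH1, HSPD1 and HSPA5 and of some gene lists are therefore also given against DMSO 24 h. That reference leaves the label of the 100 nM library of 48 h itself in doubt.

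The promoters of these genes are shown first, since the heat shock element is the feature by which the family is best known. RefSeq (GRCh38.p14) listed 15 promoter windows for the 10 genes, each running from 250 bases before a transcription start to 50 bases after it. The search was for 2 inverted units 2 bases apart, GAANNTTC or TTCNNGAA (each reads the same on both strands), and for 3 alternating units of GAA and TTC with the same spacing, each of which holds overlapping 2-unit matches. The 2-unit form was present in 8 of the 15 windows, belonging to 7 of the 10 genes, and in 13.5% of all 35116 promoter windows of this length. The 3-unit form was present in 1 window each of HSP90AA1, HSP90AB1 and HSPA8, against 0.490% of all windows. HSPA2, HSPH1 and BAG3 had no match, which says only that these letters are not in these windows.

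The 250 bases before the start are printed for 4 genes, 5′ to 3′, with every 2-unit match in capitals. The nearly identical HSPA1A and HSPA1B are shown because their reads are hard to separate. HSPA8 and HSP90AA1 are shown because both hold the 3-unit form and yet differed in direction at 24 h.
HSPA1A, chr6:31815293-31815542, plus strand: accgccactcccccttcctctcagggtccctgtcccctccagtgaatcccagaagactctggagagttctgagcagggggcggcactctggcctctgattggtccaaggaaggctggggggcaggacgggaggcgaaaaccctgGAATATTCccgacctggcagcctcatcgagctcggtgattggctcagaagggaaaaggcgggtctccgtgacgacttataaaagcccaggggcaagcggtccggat
HSPA1B, chr6:31827488-31827737, plus strand: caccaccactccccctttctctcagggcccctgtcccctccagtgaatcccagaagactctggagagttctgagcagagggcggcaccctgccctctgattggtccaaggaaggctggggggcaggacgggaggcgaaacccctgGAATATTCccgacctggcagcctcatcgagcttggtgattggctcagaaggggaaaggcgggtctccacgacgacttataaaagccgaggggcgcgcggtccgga
HSPA8, chr11:123062137-123062386, minus strand: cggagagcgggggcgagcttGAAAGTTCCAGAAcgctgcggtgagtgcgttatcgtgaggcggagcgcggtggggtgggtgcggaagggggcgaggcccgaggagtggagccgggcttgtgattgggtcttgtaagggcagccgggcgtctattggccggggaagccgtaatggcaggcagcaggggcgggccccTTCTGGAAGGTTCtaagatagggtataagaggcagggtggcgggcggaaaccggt
HSP90AA1, chr14:102087045-102087294, minus strand: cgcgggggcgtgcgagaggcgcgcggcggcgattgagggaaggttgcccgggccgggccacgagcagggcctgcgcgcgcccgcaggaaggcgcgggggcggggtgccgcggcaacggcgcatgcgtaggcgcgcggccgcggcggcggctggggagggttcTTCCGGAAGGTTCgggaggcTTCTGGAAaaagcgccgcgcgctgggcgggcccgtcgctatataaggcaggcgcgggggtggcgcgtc

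HSPA1A and HSPA1B each held a single 2-unit match, whose first base was at position -106 and -105 (positions before the start are negative). Both also held a TATA box (the exact letters TATAAA, either strand), at -30 and -29, which no other of the 15 windows did and 11.5% of all windows do. Only these letters were searched for, so other TATA-like forms, such as tatataag in the HSP90AA1 window above, were not counted. A CCAAT box (CCAAT, either strand) was present in 8 of the 15 windows, 2 copies each in HSPA1A and HSPA1B, and in 34.6% of all windows. A GC box (GGCGGG, either strand) was present in 13 of the 15 and in 45.0% of all windows. HSPA8 held the 3-unit form at -230 and again at -55. HSP90AA1 held it at -88 in this window, with a further 2-unit match at -68, and held none in the window of its other start. The upstream stretches of HSPA1A and HSPA1B were alike at 235 of 251 aligned positions (93.6%).

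**Figure D1:**
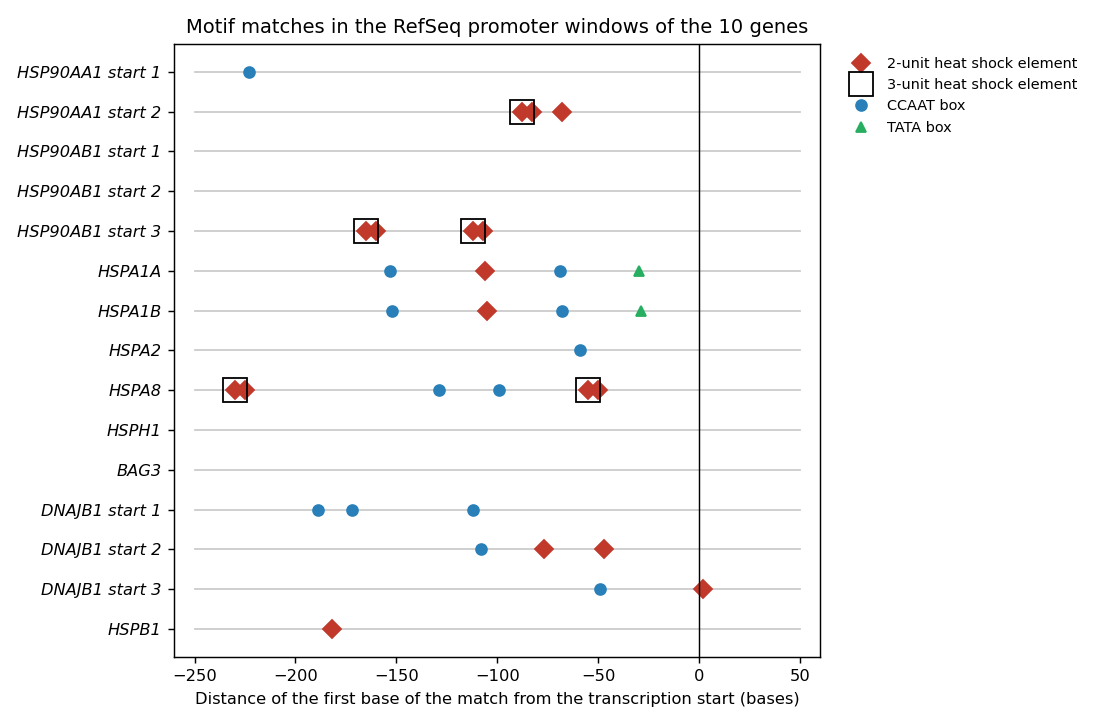
Matches to 4 motifs in the 15 RefSeq promoter windows of the 10 genes, with the distance of the first base of each match from the transcription start in bases on the x axis and 1 line per window, numbered where a gene has several starts. Diamonds are 2-unit heat shock elements, open squares 3-unit ones, circles CCAAT boxes and triangles TATA boxes; the squares lie in 1 window each of HSP90AA1, HSP90AB1 and HSPA8.

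The HSP90 genes encode the inducible (alpha) and the constitutive (beta) cytosolic HSP90. HSP90AA1 (NCBI Gene 3320, chr14:102547075-102606086 in the hg19 build of the files, minus strand) was at 1110.25 FPKM in DMSO, 1184 FPKM with 100 nM and 1297 FPKM with 200 nM at 24 h, and at 687, 596 and 705 FPKM in the same order at 48 h. All 3 libraries of 24 h lay above all 3 of 48 h, and within 24 h the level followed the dose. The differences from DMSO were 0.09 and 0.22 (log2) for 100 and 200 nM at 24 h and -0.20 and 0.04 at 48 h, each with a counting error of about 0.01. Against DMSO 24 h, the 48 h values were -0.90 and -0.65.

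HSP90AB1 (NCBI Gene 3326, chr6:44213903-44221625, plus strand) lay in the opposite order at 24 h, at 729.98, 655 and 620.1 FPKM in DMSO, 100 nM and 200 nM. At 48 h it lay at 580, 576 and 576 FPKM, a spread smaller than any between the 24 h libraries. The differences from DMSO were -0.16 and -0.24 (log2) at 24 h and -0.01 for both doses at 48 h, where the sign turned with another scaling of the libraries (0.01 with 200 nM as TPM, 0.03 with 100 nM by median-of-ratios). Against DMSO 24 h both 48 h values were -0.34. The inducible form was thus 1.52, 1.81 and 2.09 times the constitutive one in FPKM at 24 h in order of dose, and 1.18, 1.04 and 1.22 times at 48 h. Reads of both genes can also fit their processed pseudogenes. Of all 50-base stretches of their transcripts, 17.5% for HSP90AA1 and 19.0% for HSP90AB1 also occurred in a transcript of another gene (GENCODE 29), most often HSP90AA2P and HSP90AB3P.

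**Figure D2:**
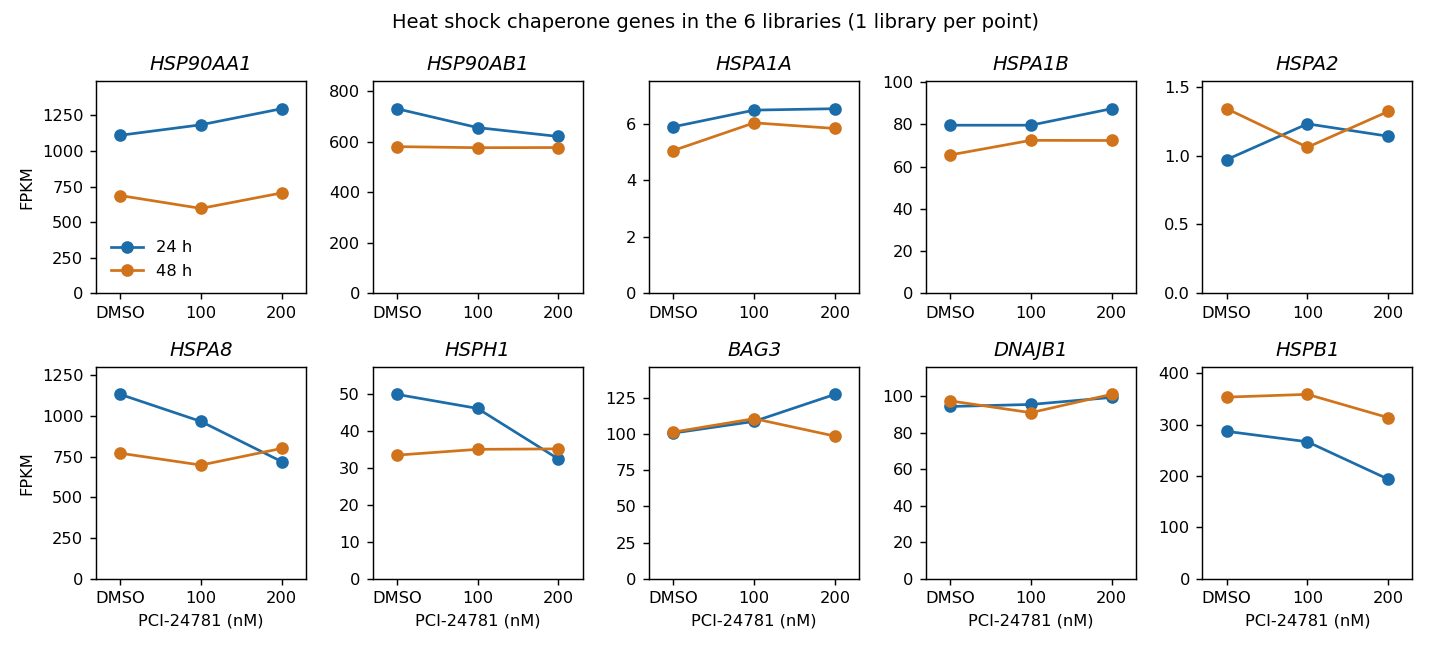
FPKM of the 10 genes in the 6 libraries, with the PCI-24781 dose on the x axis and FPKM from 0 on the y axis of each panel. Each point is 1 library, blue for 24 h and orange for 48 h; HSP90AA1 lies higher in all 24 h libraries (1110.25 to 1297 FPKM) than in all 48 h libraries (596 to 705 FPKM), and HSPA8 and HSPH1 are ordered downward with dose at 24 h but not at 48 h.

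HSPA8 (NCBI Gene 3312, chr11:122928200-122933043, minus strand) encodes HSC70, the constitutive cytosolic HSP70 that also uncoats clathrin vesicles and serves chaperone-mediated autophagy. It was at 1133 FPKM in DMSO, 966 FPKM with 100 nM and 719.6 FPKM with 200 nM at 24 h, and at 771, 698 and 801 FPKM at 48 h. The level with 200 nM at 24 h was thus lower than in DMSO 24 h but near that of the 3 libraries of 48 h, DMSO included. Its rank among all genes by FPKM went from 28 to 47 to 70 in order of dose at 24 h, and was 62, 71 and 61 at 48 h. For 100 and 200 nM the differences from DMSO were -0.23 and -0.65 (log2) at 24 h, while those of 48 h were -0.14 and 0.05, with counting errors of about 0.01. The value for 200 nM at 24 h passed the 1.5-fold but not the 2-fold threshold and lay at percentile 5.57 of the genes compared. Against the mean of both DMSO libraries that value was -0.38, and against DMSO 24 h the 48 h values were -0.70 and -0.50. Of its 50-base stretches, 15.4% occurred in transcripts of other genes, HSPA8 pseudogenes among them.

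HSPA1A and HSPA1B encode the stress-inducible HSP70, with nearly the same protein from neighbouring genes of the major histocompatibility region. HSPA1B (NCBI Gene 3304) is placed in the files on an alternative haplotype sequence of chromosome 6 in hg19 (chr6_dbb_hap3, 3081099 to 3083618, plus strand). It was at 79.6 FPKM in DMSO and with 100 nM and at 87.5 FPKM with 200 nM at 24 h, and at 65.5, 72.5 and 72.4 FPKM at 48 h. HSPA1A (NCBI Gene 3303, chr6:31783291-31785719, plus strand) was at 5.89, 6.48 and 6.53 FPKM at 24 h and at 5.05, 6.03 and 5.83 FPKM at 48 h. Both genes were as high or higher in each PCI-24781 library than in DMSO of its time, by 0.00 to 0.14 (log2) for HSPA1B and 0.12 to 0.22 for HSPA1A. For HSPA1B with 100 nM at 24 h the difference was 0.00 and became -0.06 with median-of-ratios scaling. The counting error was about 0.11 for HSPA1A, and none of its differences exceeded 2 such errors.

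The 12.0 to 13.5 times higher FPKM of HSPA1B than of HSPA1A is uncertain. Of 50-base stretches of the HSPA1A transcript 72.6% occurred in another gene, as did 73.5% for HSPA1B, in nearly all cases in each other, so that the split of reads between them rests on the remaining bases and on the estimation. Their summed level gave differences from DMSO within 0.01 (log2) of those of HSPA1B alone. Against DMSO 24 h, HSPA1B at 48 h was at -0.13 with 100 nM and -0.14 with 200 nM, the opposite sign to that against DMSO 48 h, and HSPA1A was at 0.03 and -0.01.

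HSPA2 (NCBI Gene 3306, chr14:65007186-65009955, plus strand), the HSP70 form best known from the testis, was the lowest of the 10 genes. It was at 0.97, 1.23 and 1.14 FPKM at 24 h and at 1.34, 1.06 and 1.32 FPKM at 48 h, in no order of dose at either time. These levels correspond to an approximate 48.3 to 65.4 fragments per library, and no difference from DMSO (-0.18 to 0.18, log2) exceeded 2 counting errors. With DMSO 24 h as the reference the 48 h values were 0.06 and 0.24. No 50-base stretch of its transcript occurred in another gene.

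HSPH1 and BAG3 encode factors that make HSP70 release its nucleotide, HSPH1 being the large HSP110 chaperone and BAG3 a scaffold that joins HSP70 to small heat shock proteins and selective autophagy. HSPH1 (NCBI Gene 10808, chr13:31709111-31736525, minus strand) was at 49.8 FPKM in DMSO, 46.0 FPKM with 100 nM and 32.3 FPKM with 200 nM at 24 h, and at 33.4, 34.9 and 35.1 FPKM at 48 h. As for HSPA8, the 200 nM library of 24 h lay near the 48 h libraries. The differences from DMSO were -0.11 and -0.61 (log2) at 24 h, the latter past 1.5-fold and at percentile 6.82, and 0.06 and 0.07 at 48 h, with counting errors between 0.03 and 0.04. Against DMSO 24 h the 48 h values were -0.50 and -0.49. The FPKM of HSPA8 was 20.0 to 23.1 times that of HSPH1 in all 6 libraries, although each gene's own level varied over more than 1.5-fold. No part of the HSPH1 or the BAG3 transcript was shared with another gene at 50 bases.

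BAG3 (NCBI Gene 9531, chr10:121410882-121437331, plus strand) was at 100.5, 108.6 and 127 FPKM at 24 h and at 101, 110.4 and 98.4 FPKM at 48 h. It was highest with 200 nM at 24 h, where HSPH1 was lowest. Against DMSO it was at 0.11 and 0.34 (log2) at 24 h, and at 0.13 with 100 nM and -0.04 with 200 nM at 48 h. The 24 h value of 200 nM was the largest positive one among the 10 genes in the comparisons with DMSO of the same time, did not reach 1.5-fold and lay at percentile 76.5 of the genes compared. With DMSO 24 h as the reference the 48 h values were 0.13 and -0.03. The 2 HSP70 release factors thus differed in direction at this dose and time.

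DNAJB1 (NCBI Gene 3337, chr19:14625576-14640134, minus strand) encodes HSP40, the J-domain protein that hands clients to HSP70 and starts its ATP use. It was at 94.3, 95.4 and 99.25 FPKM at 24 h and at 97.4, 90.9 and 101 FPKM at 48 h, the narrowest range of the 10 genes. No difference from DMSO exceeded 0.10 in size (log2), and that of 100 nM at 24 h turned from 0.02 to -0.04 with median-of-ratios scaling. With DMSO 24 h as the reference the 48 h values were -0.05 and 0.10. The FPKM of HSPA8 was 12.0 times that of DNAJB1 in DMSO at 24 h, 10.1 times with 100 nM and 7.25 times with 200 nM, and 7.68 to 7.93 times at 48 h.

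HSPB1 (NCBI Gene 3315, chr7:75931875-75933614, plus strand) encodes HSP27, the small heat shock protein that forms large oligomers around unfolded clients and binds actin. It was at 287 FPKM in DMSO, 267 FPKM with 100 nM and 194 FPKM with 200 nM at 24 h, and at 354, 359 and 314 FPKM at 48 h. All 3 libraries of 48 h lay above those of 24 h, and at both times the library of 200 nM was the lowest. It differed from DMSO by -0.11 and -0.56 (log2) at 24 h, and by 0.02 with 100 nM and -0.17 with 200 nM at 48 h, with counting errors of about 0.03. With 200 nM at 24 h the value lay at percentile 8.22, just short of 1.5-fold. Against DMSO 24 h the 48 h values were 0.32 and 0.13. Of its 50-base stretches 11.4% occurred in transcripts of other genes, HSPB1P1 and HSPB1P2 among them.

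Read together, none of the 10 genes was called at 2-fold in any comparison with DMSO of the same time. The share of all genes called in either direction was 1.48% with 100 nM and 5.96% with 200 nM at 24 h, and 0.469% and 0.266% at 48 h, so that 0 of 10 is near what these shares give. At 1.5-fold, HSPA8 and HSPH1 were lower with 200 nM at 24 h, 2 of 10 genes where 7.62% of all genes were lower by that much, and no other difference from DMSO passed. Which genes passed depended on the reference and the scaling. Against the mean of both DMSO libraries HSPA8 (-0.38) and HSPH1 (-0.33) did not pass and HSPB1 did (-0.71), and with median-of-ratios scaling HSPB1 (-0.63) passed beside them. The median difference of the 10 genes was 0.01 and 0.10 (log2) with 100 and 200 nM at 24 h and 0.01 and 0.04 at 48 h, beside 0.01, 0.01, -0.01 and 0.01 for all genes compared. The 48 h medians of the 10 genes against DMSO 24 h were -0.093 and -0.083. The 10 genes did not share a direction, with 6 above and 4 below DMSO with 200 nM at 24 h, where 51.2% of all genes lay above. Of these 10 differences 7 exceeded 2 counting errors, as did 4 of 10 with 200 nM at 48 h. The share of all genes that did so was not taken. For abundant genes the error is so small that slight differences pass, such as 0.04 (log2) for HSP90AA1 with 200 nM at 48 h. Counting error also leaves out the split of reads between HSPA1A and HSPA1B. It leaves out the spread between cultures too, which was not measured.

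**Figure D3:**
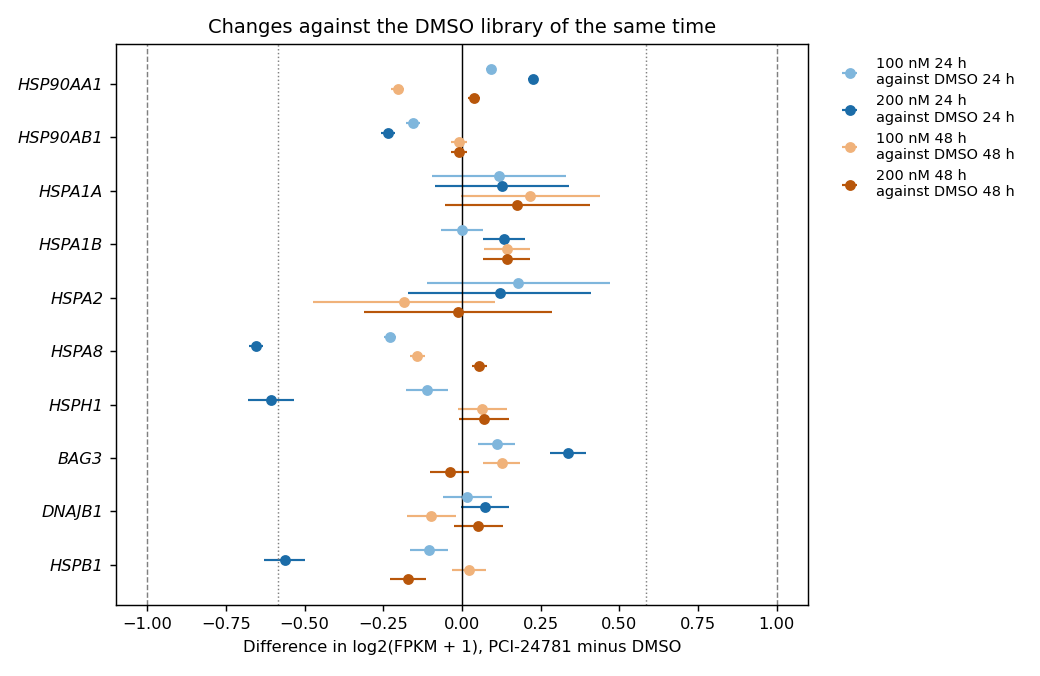
Differences in log2(FPKM + 1) between PCI-24781 and DMSO of the same time on the x axis for the 10 genes, with bars of 2 counting errors, which leave out the spread between cultures. Dotted lines mark 1.5-fold and dashed lines 2-fold; HSPA8 (-0.65) and HSPH1 (-0.61) with 200 nM at 24 h lie past the dotted line, HSPB1 (-0.56) lies just inside it, and no point passes the dashed lines.

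At 24 h the levels followed the order DMSO, 100 nM, 200 nM in 9 of the 10 genes, all but HSPA2, where 62.9% of all genes did so. HSPA1B counts there by 79.63 against 79.64 FPKM, far within its counting error. For HSPA1A and DNAJB1 both dose steps at 24 h also lay within 2 counting errors, so their order is not resolved. With median-of-ratios scaling HSPA1B and DNAJB1 lost the order and 7 of 10 genes kept it. HSP90AA1, HSPA1A, HSPA1B, BAG3 and DNAJB1 were ordered upward and HSP90AB1, HSPA8, HSPH1 and HSPB1 downward. At 48 h 1 gene was ordered, HSPH1 (upward), where 21.6% of all genes were, and none was with median-of-ratios scaling. The ratio of HSP90AA1 to HSPA8, the most abundant pair, was 0.980, 1.23 and 1.80 in order of dose at 24 h and 0.890, 0.853 and 0.880 at 48 h.

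Most of the summed level came from a few genes. HSPA8, HSP90AA1 and HSP90AB1 made up 82.3% to 82.8% of the FPKM of the 10 genes at 24 h and 73.5% to 76.8% at 48 h. The 10 genes together summed to 3591, 3409.8 and 3185 FPKM at 24 h and to 2695, 2545 and 2709.6 FPKM at 48 h. This was 0.853%, 0.810% and 0.760% of all FPKM at 24 h in order of dose, and 0.630%, 0.597% and 0.643% at 48 h. The 48 h libraries were all below the 24 h libraries in this share.

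**Figure D4:**
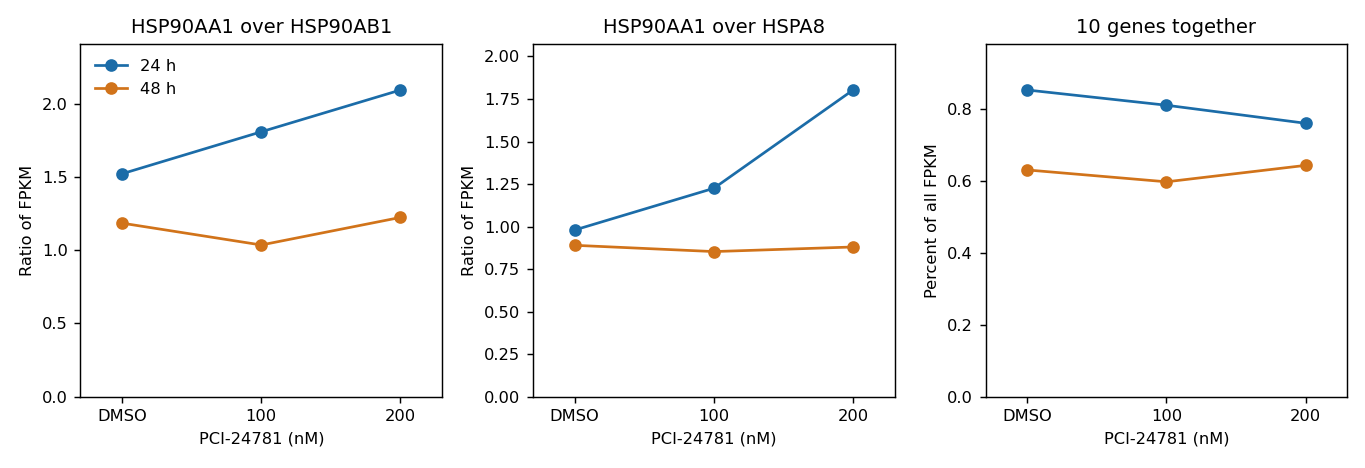
FPKM of HSP90AA1 divided by that of HSP90AB1 (left) and of HSPA8 (middle), and the 10 genes together as percent of all FPKM (right), with the PCI-24781 dose on the x axis, 1 library per point, blue for 24 h and orange for 48 h. Both ratios are ordered upward with dose at 24 h (to 2.09 and 1.80) and stay between 0.853 and 1.22 at 48 h, while the share is ordered downward from 0.853% to 0.760% at 24 h and lies at 0.597% to 0.643% at 48 h.

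For HSP90AA1, HSP90AB1, HSPA1B and HSPA2 the difference between the DMSO libraries of 48 h and 24 h was larger in size than any of their differences from DMSO of the same time, although that of HSPA2 lay within 2 counting errors. In DMSO, HSP90AA1 was lower at 48 h by more than 1.5-fold (-0.69, log2, percentile 0.953), where 1.95% of all genes were. HSPH1 (-0.56) and HSPA8 (-0.55) lay at percentiles 2.27 and 2.43. With 100 nM HSP90AA1 was again lower (-0.99), where 5.00% of genes were lower by 1.5-fold, and with 200 nM it was lower too (-0.88), where 2.07% were. HSPB1 was higher at 48 h by 0.30 in DMSO, 0.43 with 100 nM and 0.69 with 200 nM, the last past 1.5-fold, where 3.86% of all genes were higher by that much. None of the 10 genes reached 2-fold between the times, where 2.62% of all genes did in DMSO, 1.82% with 100 nM and 0.927% with 200 nM. The median of the 10 genes was -0.23 in DMSO, -0.12 with 100 nM and -0.04 with 200 nM, beside 0.00, -0.04 and 0.00 for all genes.

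The sign of the time difference was the same in all 3 pairs of libraries for 5 of the 10 genes, where 39.7% of all genes kept 1 sign. HSP90AA1, HSP90AB1, HSPA1A and HSPA1B were lower and HSPB1 was higher at 48 h in each pair. For HSPA1A each of the 3 differences lay within 2 counting errors, so its sign is not resolved. For 4 of the 10 genes, HSP90AA1, HSP90AB1, HSPA1B and HSPB1, the 24 h and 48 h libraries did not overlap, as was so for 24.5% of all genes. For HSP90AA1 the mean of the 3 pairs was -0.85 ± 0.15 (SD, log2), and for HSPB1 0.47 ± 0.20. The pairs differ in dose and are not replicates, so the SD mixes dose with other differences. For HSPB1 the values were in order of dose (0.30, 0.43 and 0.69), while for HSP90AA1 they were not. The exact permutation test of the signs of 3 pairs cannot give a two-sided p below 0.25, so no such mean can pass 0.05. HSPA8 and HSPH1 were lower at 48 h in DMSO and with 100 nM but were at 0.15 and 0.11 with 200 nM. BAG3 differed by 0.01 and 0.02 in DMSO and with 100 nM and by -0.37 with 200 nM.

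**Figure D5:**
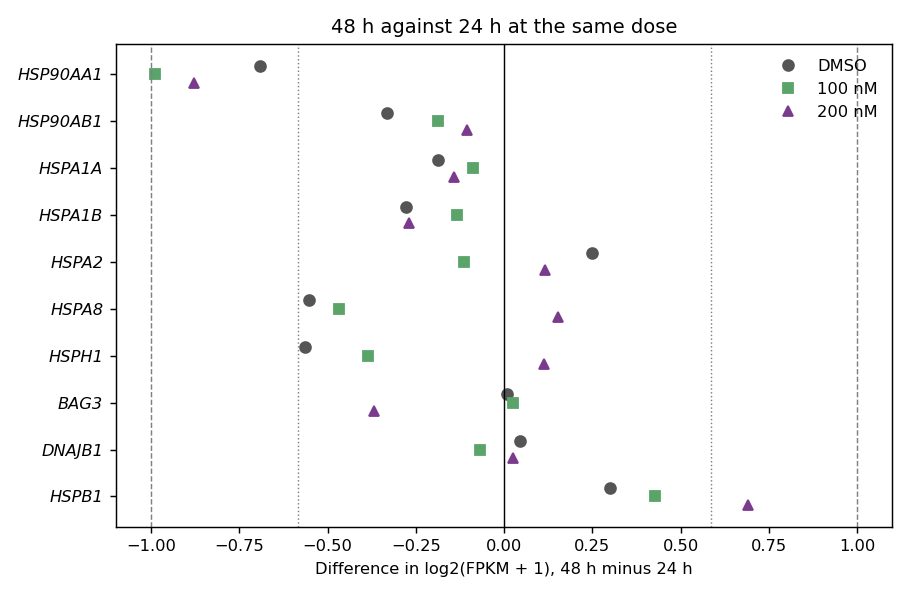
Differences in log2(FPKM + 1) between 48 h and 24 h at the same dose on the x axis for the 10 genes, with circles for DMSO, squares for 100 nM and triangles for 200 nM, 1 pair of libraries per symbol. Dotted lines mark 1.5-fold and dashed lines 2-fold; HSP90AA1 lies between -0.99 and -0.69 in the 3 pairs, HSPB1 between 0.30 and 0.69, and HSPA8 and HSPH1 change sign with 200 nM.

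HSP90AA1 was the only member whose level varied by 2-fold or more over the 6 libraries. The genes whose profile lay closest to it, by the root mean square difference of log2(FPKM + 1) centred over the 6 libraries, were RRS1 (0.10), EBNA1BP2 (0.10) and SLC3A2 (0.11). EBNA1BP2, a factor of ribosome assembly like RRS1, was at 89.7, 93.7 and 120.3 FPKM at 24 h and at 56.8, 53.4 and 52.8 FPKM at 48 h. SLC3A2, the heavy chain of several amino acid transporters, was at 62.4 to 83.9 FPKM at 24 h and at 36.2 to 39.5 FPKM at 48 h.

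The wider chaperone network was read from 10 lists of 136 genes outside the 10 members, of which 128 were in the files and 113 or 114 passed the filter in a comparison with DMSO. The only one called at 2-fold was SERPINH1, the collagen chaperone HSP47 and an HSF1 target, at 61.5, 33.5 and 13.3 FPKM at 24 h and at 34.7, 45.0 and 32.3 FPKM at 48 h. It was lower with 200 nM at 24 h (-2.13, log2), where 1.48% of all genes were lower by 2-fold, and was at -0.86 with 100 nM. At 48 h it was at 0.36 and -0.10, and against DMSO 24 h at -0.44 and -0.91. At 1.5-fold with 200 nM at 24 h, 3 of the 113 were higher, where 12.5% of all genes were, and 5 were lower, where 7.62% were. These 8, named after their values were seen, were HSPA12B, DNAJC1 and SDF2L1 (higher) and SERPINH1, BAG2, DNAJC2, HSPE1 and MANF (lower).

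The heat shock factors themselves differed little. HSF1, the factor that drives the stress response, was at 59.6 to 66.4 FPKM and HSF2 at 13.7 to 15.5 FPKM over the 6 libraries, with no difference from DMSO beyond 0.13 in size (log2). HSPA6, an HSP70 gene that is almost silent without stress, stayed at 0.05 to 0.36 FPKM. Of 20 HSF1 target genes outside the members 17 passed the filter with 200 nM at 24 h. Of these 6 lay above and 11 below DMSO with a median of -0.07, where 48.6% of all genes lay below. At 48 h 14 of 17 lay below DMSO 24 h with 100 nM (median -0.44) and also with 200 nM (median -0.37). HSPD1, the mitochondrial HSP60, was at 282, 245 and 192 FPKM at 24 h and at 201, 188 and 191 FPKM at 48 h, so that 200 nM at 24 h again lay near the 48 h libraries, as for HSPA8 and HSPH1. It differed from DMSO by -0.20 and -0.55 (log2) at 24 h, and by -0.10 with 100 nM and -0.07 with 200 nM at 48 h, the latter pair being -0.58 and -0.56 against DMSO 24 h.

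Among the other lists with 200 nM at 24 h, 14 of 17 cochaperone genes of HSP90 and HSP70 lay below DMSO (median -0.15, log2). So did 11 of 16 chaperonin and prefoldin genes (median -0.15), 7 of 9 nucleotide exchange genes (median -0.07) and 21 of 39 other J-domain genes (median -0.02). All genes had a median of 0.01, with 48.6% below and 51.2% above DMSO. Of 9 other HSP70 and HSP110 genes 6 lay above DMSO (median 0.11), and so did the 5 that passed of the list of heat shock factors and their binding proteins (HSF1 0.08, HSF2 0.05, HSF4 0.18, HSBP1 0.17 and HSF2BP 0.26). No other small heat shock protein gene passed the filter in this comparison, and 1 of 2 other HSP90 genes lay above. HSPA5, the HSP70 of the endoplasmic reticulum known as BiP, was at 177, 174 and 169.8 FPKM at 24 h and at 198, 153 and 245 FPKM at 48 h. Its differences were -0.02 and -0.06 (log2) at 24 h, and -0.38 with 100 nM and 0.31 with 200 nM at 48 h. Its 48 h values against DMSO 24 h were -0.21 and 0.47. Of the 17 endoplasmic reticulum chaperone genes 8 lay above and 9 below DMSO with 200 nM at 24 h (median -0.05). At 48 h 16 of 17 lay below DMSO with 100 nM (median -0.18), where 52.4% of all genes did, and 15 of 17 above it with 200 nM (median 0.10), where 51.0% did. With 100 nM at 48 h, 26 of 38 J-domain genes and 13 of 16 chaperonin and prefoldin genes lay below DMSO too. Against DMSO 24 h these were 27 of 38 (median -0.08) and 15 of 16 (median -0.47), with 15 of 17 cochaperone genes (median -0.32). With 200 nM at 48 h they were 20 of 39 (median -0.04), 14 of 16 (median -0.40) and 16 of 17 (median -0.31) in that order. The medians of all genes against DMSO 24 h were -0.01 with 100 nM and 0.00 with 200 nM. The endoplasmic reticulum list had, against DMSO 24 h, 13 of 17 below with 100 nM (median -0.14) and 13 of 17 above with 200 nM (median 0.20). The possible exchange of labels between the DMSO and 100 nM libraries of 48 h touches each of the values against DMSO 48 h. It also touches those with 100 nM at 48 h against DMSO 24 h.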

How the data were processed

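RNA of treated MDA-MB-231 cells, enriched for mRNA or depleted of rRNA, was sequenced as 6 libraries, 1 per dose and time. According to the submitters' processing notes, the authors used Bowtie2, RSEM and the hg19 build. Versions and strand setting are not given in the sources used here. The deposited values are FPKM per gene, which RSEM divides among genes that share reads, rounded to 2 decimals, with 1 file per library and no counts. Depth was inferred from the spacing of FPKM values below 0.5, which is approximate, and covers counting error only.

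Gene IDs were named by the RefSeq gene table (16585 of 16623). Differences of log2(FPKM + 1) were taken with Python 3.11.15, numpy 2.4.6 and pandas 2.3.3, over genes at 1 FPKM or more in either library. Calls were set at 2-fold, read also at 1.5-fold. The calling rule was tested on simulated data with counting error only and with changes larger than any of the members. That test leaves out the spread between cultures. Sequences were aligned with Biopython 1.88 and plots drawn with matplotlib 3.10.9. Promoters are from RefSeq GRCh38.p14 and were not placed on hg19.

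The members and the 10 gene lists were chosen with earlier results of these data known. Named beside the members are every list gene called at 2-fold against DMSO, HSF1, HSF2, HSPA5, HSPA6 and HSPD1, and the 3 nearest profiles of members varying by 2-fold. Of the listed genes 8 were not analysed here. Alternatives were other pseudocounts (0.1 and 0.01), filters, TPM, median-of-ratios scaling, other DMSO references, a 1.5-fold threshold and the sum of HSPA1A and HSPA1B.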

Additional observations from a re-analysis of the deposited data

How the results depend on the processing

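The counts of members called at 2-fold against DMSO of the same time were 0 in each of the 4 comparisons with pseudocounts of 0.1 and 0.01, with the filter on both libraries or none, as TPM and with median-of-ratios scaling. The filter settings could not add a call, since every member already passed. The 1.5-fold threshold gave 2 members lower with 200 nM at 24 h. The listed chaperone genes called higher with 200 nM at 24 h numbered 0, but 1 with either smaller pseudocount (HSPA12B), 2 as TPM (HSPA12B and HSPB8) and 3 at 1.5-fold. At 1.5-fold 5 were lower in that comparison, 1 was higher and 1 lower with 100 nM at 24 h, and 1 was lower with 100 nM at 48 h. With DMSO 24 h as the reference the median difference of the members with 200 nM at 48 h was -0.083 in place of 0.04.

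Of the 40 differences of single members from DMSO, 1 changed sign as TPM, 3 with median-of-ratios scaling and 10 against the mean of both DMSO libraries. Against DMSO 24 h 10 changed sign, all of them at 48 h, since the 24 h differences stay the same by construction. Other pseudocounts changed the sign of 0, as a pseudocount cannot turn a sign. The scaling moved the values of the members by up to 0.07 (log2). Taking DMSO 24 h as the reference moved them by up to 0.69. By construction that is the size of the difference of HSP90AA1 between the 2 DMSO libraries, so it measures time and not processing.

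Each comparison with DMSO rested on 1 library a side, and no library was left out in turn. The 3 doses served as pairs for the time difference alone, and a model with dose and time as terms was not fitted. The dose order and its scaling, the time pairs, the 1.5-fold calls under other settings, the ratios within a library, the shared stretches and the inferred depth were added after seeing the data. Depth limits HSPA2 and HSPA1A, whose differences from DMSO did not exceed 2 counting errors, and culture-to-culture spread is unknown for all 10 genes.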
